A study of Mus musculus with 6 samples.

Results

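Early erythroid progenitors were described here as 600 cells among 29097 kept barcodes of a mouse single-cell RNA-seq matrix that held 39048 barcodes in all. A kept barcode had at least 5000 UMIs (unique molecular identifiers, each counting 1 captured RNA molecule), at least 500 genes and at most 10% mitochondrial UMIs. A member held at least 3 UMIs of Klf1 and at least 1 of Gata1. It held no more than 2 UMIs of Csf1r, fewer than 5 of Cpa3, no more than 1 of Mrc1 and Lyve1 together, and less than 30% of its UMIs were globin. The members were therefore chosen on measured values, and their levels of these genes are a description only. The name is used for all 600 cells, although markers given below do not bear out the word early for all of them.

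The labels list 6 samples in 3 groups of 2. Embryos of genotype Cx3cr1CreER; R26tdTomato were exposed to 4-hydroxytamoxifen at embryonic day 9.5, and embryos that combined Csf1r-Mer-iCre-Mer with Csf1r-EGFP and R26tdTomato at day 8.5. Both were collected at E14.5, and cells of the macrophage and monocyte lineage were isolated from the whole body. The third group was total bone marrow of wildtype C57BL/6 mice aged 2 months. In the embryos a tamoxifen-dependent Cre recombinase, under Cx3cr1 or Csf1r control, switches on the red fluorescent reporter tdTomato, so the label marks cells that expressed the driver gene around the injection and their descendants. Each barcode ends in a library number (1 to 4), and no label ties these numbers to samples. The name of the deposited table carries the driver genes of both embryo groups and no mention of bone marrow. The matrix was handled as 1 pool of 4 unnamed libraries. No test between groups was possible, and no p-value is given. Intervals are 95% and cover counting error only, and ranges are over libraries.

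Red cells arise from progenitors that commit to the erythroid lineage under the transcription factors Gata1 and Klf1, proliferate in response to erythropoietin and Kit ligand, and then build the haem pathway, the red cell membrane and the globins. In the mouse embryo a first, primitive wave of red cells from the yolk sac makes embryonic globins, while later definitive progenitors in the fetal liver make adult globins. Macrophages accompany these cells and engulf the nuclei that they expel.

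Promoters of 6 genes are shown as examples of the gene groups that the results describe: the factor Klf1, the erythropoietin receptor gene Epor, the haem enzyme gene Cpox, the membrane protein gene Rhd, the adult globin gene Hbb-bs and the embryonic globin gene Hbb-y. They were chosen after the values were seen. Each run covers 250 bases before and 50 after the annotated start, on the gene's strand, 5′ to 3′, from RefSeq (build GRCm38.p6). Capitals mark matches on either strand to GATAAG, a sequence bound by GATA factors and found as CTTATC on the other strand, or to CCNCNCCC, a sequence bound by Klf1 and related factors. Adjoining capitals can hold overlapping matches.
Klf1, chr8:84901732-84902031, plus strand: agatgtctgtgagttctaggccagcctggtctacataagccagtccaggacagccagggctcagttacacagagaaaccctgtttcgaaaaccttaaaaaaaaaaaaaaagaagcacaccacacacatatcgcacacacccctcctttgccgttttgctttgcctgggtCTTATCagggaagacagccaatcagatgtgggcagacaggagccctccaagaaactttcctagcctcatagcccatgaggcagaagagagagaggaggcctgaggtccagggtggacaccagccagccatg
Epor, chr9:21963527-21963826, minus strand: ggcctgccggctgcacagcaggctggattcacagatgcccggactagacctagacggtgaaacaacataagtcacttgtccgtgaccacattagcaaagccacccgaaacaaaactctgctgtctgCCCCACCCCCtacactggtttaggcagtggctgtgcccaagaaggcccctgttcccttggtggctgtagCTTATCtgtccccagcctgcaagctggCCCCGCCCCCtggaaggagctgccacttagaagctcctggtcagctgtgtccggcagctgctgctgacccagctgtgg
Cpox, chr16:58669958-58670257, plus strand: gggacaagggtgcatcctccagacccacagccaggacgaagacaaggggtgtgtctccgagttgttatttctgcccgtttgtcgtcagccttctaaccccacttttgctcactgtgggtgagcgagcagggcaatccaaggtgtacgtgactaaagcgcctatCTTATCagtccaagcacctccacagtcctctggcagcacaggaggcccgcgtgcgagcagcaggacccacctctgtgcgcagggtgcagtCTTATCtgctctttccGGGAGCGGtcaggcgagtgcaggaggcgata
Rhd, chr4:134864286-134864585, plus strand: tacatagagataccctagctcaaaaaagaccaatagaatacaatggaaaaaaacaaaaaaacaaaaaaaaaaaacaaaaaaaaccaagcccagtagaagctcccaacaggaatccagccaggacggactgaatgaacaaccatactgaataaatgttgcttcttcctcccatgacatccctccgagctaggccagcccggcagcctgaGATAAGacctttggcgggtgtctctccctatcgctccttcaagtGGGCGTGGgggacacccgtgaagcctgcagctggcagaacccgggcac
Hbb-bs, chr7:103827879-103828178, minus strand: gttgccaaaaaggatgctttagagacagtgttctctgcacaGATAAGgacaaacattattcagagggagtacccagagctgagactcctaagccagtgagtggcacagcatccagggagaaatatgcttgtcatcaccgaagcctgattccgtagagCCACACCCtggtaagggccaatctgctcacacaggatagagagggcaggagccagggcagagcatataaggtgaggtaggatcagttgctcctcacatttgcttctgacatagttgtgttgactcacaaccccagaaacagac
Hbb-y, chr7:103853158-103853457, minus strand: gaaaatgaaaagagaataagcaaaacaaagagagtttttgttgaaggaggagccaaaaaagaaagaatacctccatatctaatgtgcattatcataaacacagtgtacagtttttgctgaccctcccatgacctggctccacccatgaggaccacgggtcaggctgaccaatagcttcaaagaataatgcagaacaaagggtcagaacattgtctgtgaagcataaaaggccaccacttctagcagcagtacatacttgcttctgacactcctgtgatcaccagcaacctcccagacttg

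GATAAG occurred in 7.44% of all 32851 promoters in the table and CCNCNCCC in 49.5%. Of the 6 windows, those of Klf1, Epor, Rhd and Hbb-bs held 1 GATAAG match each, that of Cpox held 2 and that of Hbb-y held 0. CCNCNCCC matched at 4 places for Epor, at 1 for Cpox, Rhd and Hbb-bs, and at 0 for Klf1 and Hbb-y. A match is a run of letters and not a measured binding site.

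Members were unevenly spread over the libraries. Libraries 1 to 4 held 19, 19, 272 and 290 members, which was 0.259%, 0.307%, 4.25% and 3.16% of their 7325, 6186, 6403 and 9183 kept barcodes. The pooled share was 2.06% (1.90 to 2.23). The shares of libraries 3 and 4 lay above those of libraries 1 and 2 with intervals that did not overlap. How cells were sorted or loaded for each library was not used here, and such a step can set these shares. The members were deep cells, with a median of 40316.5 UMIs (range 5191 to 86874), against a median of 15619 in the 28497 other kept barcodes, which are called the rest. When each cell was thinned to 5000 UMIs, the median number of genes was 1812 in members and 1923 in macrophages.

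**Figure D1:**
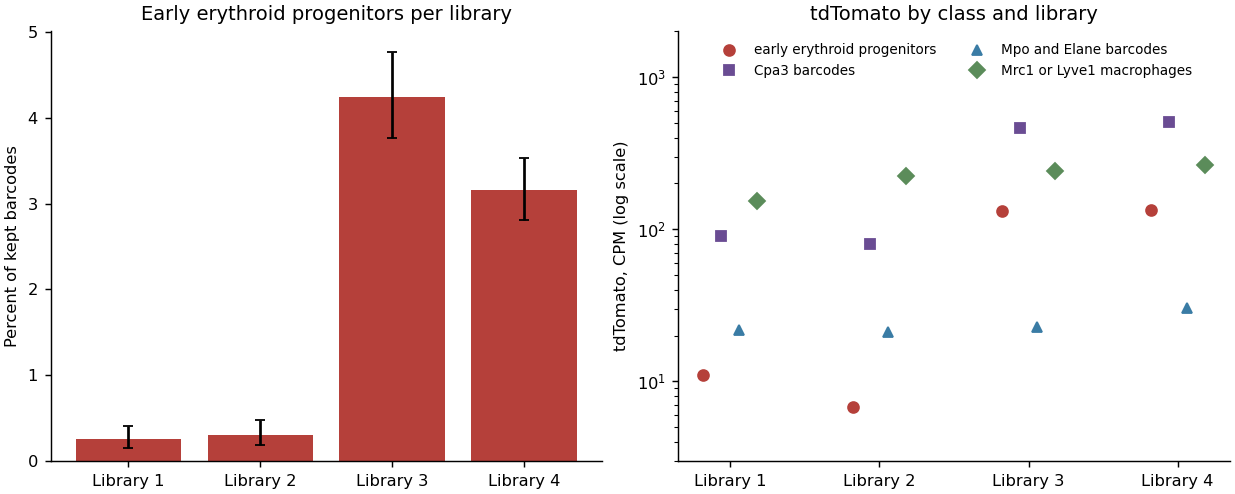
Left, bars give the share of kept barcodes that were early erythroid progenitors in each library (percent, with exact binomial 95% intervals). Right, points give tdTomato in CPM on a log scale for 4 classes in each library, with the members at 11.03 and 6.83 CPM in libraries 1 and 2 and at 131 and 134 CPM in libraries 3 and 4.

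The label was checked against Klf1, Gata1 and Car2. Klf1 had a median of 21 UMIs per member (range 3 to 69) and Gata1 a median of 6 (range 1 to 20), as the selection required. Car2, a carbonic anhydrase gene of erythroid cells, was not used to choose the cells. It had at least 1 UMI in 599 of 600 members. Its level was 2574, 1900.4, 2739 and 2580.4 CPM (counts per 1000000 UMIs) in members of libraries 1 to 4, against 40.0, 23.6, 79.4 and 76.2 CPM in the rest. Every library of the members lay above every library of the rest. After thinning, 99.2% of members held a Car2 UMI, against 5.49% of macrophages. Near the limit of 3 Klf1 UMIs, the 8 cells just inside averaged 2217 CPM of Car2, and the 4 cells with 2 Klf1 UMIs averaged 1775 CPM, whereas the 3 with 1 had 42.5 CPM. At the globin limit, the 9 cells at 25 to under 30% globin had 5676 CPM of Car2. The 7 barcodes at 30 to under 35% had 5696 CPM. On UMIs other than globin, Car2 had 2726 CPM in members and 6625 CPM in globin-dominated barcodes (30% or more globin). Car2 therefore marks the members as erythroid and not as early.

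Of markers of other lineages, those of macrophages, granulocytes and monocytes were the most abundant in members. The 11 macrophage markers summed to a median of 5.84 per 10000 UMIs in members, against 195 in the rest. All 11 were lower in members by the 4-fold rule given in the next paragraph, with a median log2 difference of -4.37 (libraries -4.80 to -4.05). Csf1r and Mrc1 are among the 11, and the selection limited both, so their low levels were set in advance. The 7 monocyte markers had medians of 1.22 per 10000 UMIs in members and 33.2 in the rest, and the 8 granulocyte markers 1.78 in members and 1.91 in the rest. At least 20 per 10000 UMIs of these lists were found in 8, 9 and 8 members for macrophage, monocyte and granulocyte markers. The mast cell marker Fcer1a, the platelet receptor gene Gp6, the T cell gene Cd3e and the stem cell gene Procr had 0 of the members' 23369725 UMIs. This allows up to 0.128 CPM. Other genes of their lists were detected. In members the mast cell, megakaryocyte, lymphoid and stem and progenitor lists summed to 38.6, 36.3, 3.08 and 6.85 CPM. In the rest they summed to 1199, 1232, 53.4 and 143 CPM. Against the rest, all 7 monocyte and all 8 granulocyte markers were called lower. So were 4 of 9 mast cell and basophil markers, 4 of 7 hepatocyte markers and 2 of 7 mesenchymal and endothelial markers. The same held for 1 of 9 megakaryocyte markers (Pf4), 1 of 10 stem and progenitor genes (Cd34) and 0 of 6 lymphoid markers. Pf4 is also among the macrophage markers, and the megakaryocyte list summed to 3159 CPM in macrophages. None of these lists had a gene called higher. One member of library 4 held 2389 UMIs of 6 heart muscle genes (Myl7, Nppa, Actc1, Tnnt2, Myh6 and Myl4) among 70121, beside 11 of Klf1 and 26 of Car2. Of the members, 22 had a barcode sequence that also occurred in another library, and 0 such pairs were both members.

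Across all genes with at least 100 UMIs, 118 of 15119 were called higher in members than in the rest (0.78%) and 601 lower (3.98%). A call meant a 4-fold difference on the log2(CPM + 10) scale with the same direction in every library, which understates differences of weakly detected genes. Among 3442 genes with at least 50 CPM in either class, 103 were called higher (2.99%) and 482 lower (14%). The median log2 difference of all 15119 genes was -0.07. Where libraries of members and the rest are said not to overlap, the share of all genes that do so is not given. The median of a gene list covers its genes with at least 100 UMIs in the classes compared, while its counts of calls cover every measured gene of the list, and a gene under 100 UMIs counts as not called. Against the rest, 1 late erythroblast gene fell under 100 UMIs.

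The erythroid transcription factors and cofactors had a median log2 difference of 1.34 (libraries 1.31 to 1.55). Of 16, the factors Tal1, Gfi1b and Bcl11a, the Gata1 cofactor Zfpm1 and the elongation factor gene Mllt3 were called higher, Gata2 was called lower and 10 were not called. Gfi1b, a repressor needed for red cells and platelets, had 99.2, 119, 77 and 87.3 CPM in members of libraries 1 to 4, against 0.955, 0.442, 2.94 and 2.6 CPM in the rest, a log2 difference of 2.98 (libraries 2.75 to 3.62). Bcl11a, which silences embryonic and fetal globin genes, had 121, 182, 138 and 138 CPM in members, against 12.6, 9.18, 29.7 and 25.7 CPM in the rest. Neither gene overlapped between members and the rest. Gata2, the factor that Gata1 replaces as red cells commit, was at 2.61 CPM in members (2 to 3.35), against 671 CPM in Cpa3 barcodes. Those were the 1359 cells with at least 5 Cpa3 UMIs, a mast cell and basophil protease, and no more than 2 of Klf1. Lmo2, part of the Tal1 complex, averaged 269 CPM in members and 91.9 CPM in the rest, short of 4-fold.

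Among 12 growth factor receptors and erythropoietin response genes, Epor alone was called higher and 0 were called lower. Epor had 162, 164, 141 and 157 CPM in members of libraries 1 to 4, against 14, 14.7, 11 and 12.1 CPM in the rest, a log2 difference of 2.81 (libraries 2.82 to 2.92). The members' levels varied little between libraries and stood apart from the rest in each. At 5000 UMIs per cell, 48.2% of members had an Epor UMI (44.1 to 52.3), against 4.93% of Cpa3 barcodes, 0.441% of Mpo and Elane barcodes and 13.1% of macrophages. The Mpo and Elane barcodes were 1133 cells with at least 5 UMIs of Mpo and 1 of Elane, granule proteins of myeloid precursors. They held no more than 2 UMIs of Klf1. The macrophages were 9389 cells with at least 3 UMIs of Csf1r, at least 5 of Mrc1 and Lyve1 together, and no Klf1 UMI. Both classes had less than 30% globin. Klf1 thus helped to choose the compared classes as well as the members, so low erythroid levels in these classes are partly set by that choice. Unthinned, the shares were 95.7%, 15.2%, 1.94% and 31.1%, at median depths of 40316.5, 19888, 29627 and 15222 UMIs. Kit, the receptor of Kit ligand, averaged 18.4 CPM in members (16.7 to 20.3), against 254 CPM in Cpa3 barcodes and 17.5 CPM in Mpo and Elane barcodes. Cish, a feedback inhibitor induced by erythropoietin signalling, was at 2.14 CPM in members and 2.67 CPM in the rest.

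Of 11 iron genes, 3 that serve uptake were called higher in members: the transferrin receptor gene Tfrc, the endosomal iron reductase gene Steap3 and the mitochondrial iron importer gene Slc25a37. Tfrc had 183, 112, 118 and 111 CPM in members of libraries 1 to 4, against 14.2, 12.4, 19.6 and 18.7 CPM in the rest, a log2 difference of 2.24. Steap3 had 99.2, 120.1, 121 and 123 CPM in members, against 8.11, 7.56, 8.97 and 8.99 CPM in the rest. The groups did not overlap for either gene. Trf, which encodes transferrin itself, was called lower, at 7.45 CPM in members and 336 CPM in the rest. The list as a whole had a median log2 difference of -0.23 (libraries -0.35 to 0.01). Its storage and export genes were not called: Ftl1, ferritin light chain, averaged 4918 CPM in members and 11999.5 CPM in the rest, and the exporter gene Slc40a1 33 CPM in members and 127 CPM in the rest.

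Haem synthesis genes were high as a group, with a median log2 difference of 2.24 (libraries 2.16 to 2.52) and 9 of 13 called higher, 0 lower. Alad, the second enzyme of the pathway, had 688, 618, 1044 and 1041 CPM in members of libraries 1 to 4, against 35.5, 32, 67.9 and 64 CPM in the rest. Cpox, a later mitochondrial enzyme, had 767, 569, 868 and 747 CPM in members, against 21.8, 18.1, 35.9 and 30.6 CPM in the rest, a log2 difference of 4.44 (libraries 4.22 to 4.61). In both genes every library of the members lay above every library of the rest. The first enzyme has an erythroid and a housekeeping form. Alas2, the erythroid form, had 119.7, 36.9, 53.3 and 49.7 CPM in members, against 20.6, 7.78, 5.78 and 7.89 CPM in the rest, and its difference of 1.63 was not called. Alas1, the housekeeping form, was at 9.93 CPM in members and 59.2 CPM in the rest.

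Red cell membrane and cytoskeleton genes had the highest list median among the lists other than globins, at 2.39 (libraries 2.32 to 2.64), with 14 of 18 called higher and 0 lower. Rhd, an Rh blood group protein, had 523, 341, 412 and 388 CPM in members of libraries 1 to 4, against 6.28, 3.74, 9.62 and 8.2 CPM in the rest. Ermap and Rhag, both membrane proteins of red cells, averaged 152 and 149 CPM in members and 2.77 and 2.43 CPM in the rest. Slc4a1, the anion exchanger known as band 3, had 151, 61.4, 88.5 and 99.5 CPM in members, against 6.87, 3.63, 5.48 and 6.38 CPM in the rest. Among the 10 measured carbonic anhydrase and antioxidant genes, Car2, the biliverdin reductase gene Blvrb and the peroxiredoxin gene Prdx2 were called higher, and the other 7 were not called. Prdx2, which removes hydrogen peroxide in red cells, averaged 2289.9 CPM in members and 349.7 CPM in the rest.

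**Figure D2:**
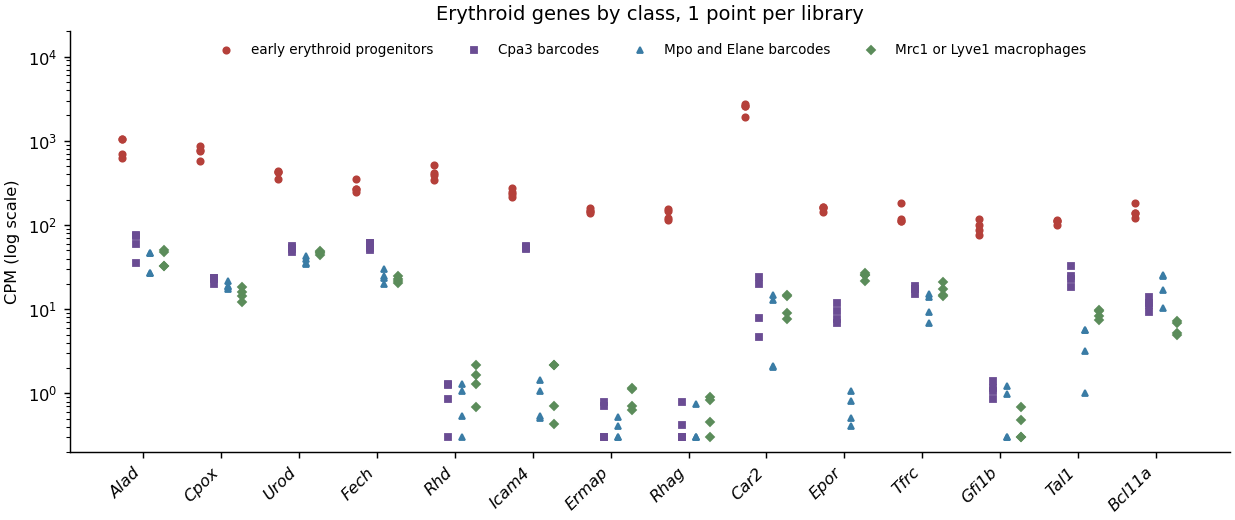
Levels of 14 erythroid genes in CPM on a log scale, 1 point for each library, in early erythroid progenitors and 3 other classes, where values under 0.3 CPM are drawn at 0.3. For each of these genes all points of the early erythroid progenitors lie above those of the other classes.

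Against each of the 3 nearer classes the same lists were high. The haem list had a median log2 difference of 2.38 against macrophages, 2.47 against Mpo and Elane barcodes and 2.21 against Cpa3 barcodes, and the membrane list 2.49, 2.60 and 2.44. Called higher were 10, 12 and 8 of the 13 haem genes, and 15, 15 and 14 of the 18 membrane genes, and 1 gene of these lists, Alas1, was called lower, against Mpo and Elane barcodes, while 1.23%, 1.43% and 1.18% of all genes tested were called higher in these comparisons and 5.08%, 3.18% and 3.29% lower. The ribosome biogenesis list, which includes Myc, had a median of 1.43 against the rest (libraries 1.17 to 1.77) with 0 of 12 called. The S phase list had a median of 0.91 and the G2 or M phase list of 0.54, each with 0 of 12 called. Of 9 nutrient transporters, the amino acid carrier genes Slc38a5 and Slc43a1 were called higher, of 11 late erythroblast genes Trim10 was, and of 8 fetal RNA-binding and chromatin genes Arid3a was called lower. After thinning, Mki67, a marker of cycling cells, was found in 61.3% of members (57.3 to 65.3), 42.9% of Cpa3 barcodes, 45% of Mpo and Elane barcodes and 25.9% of macrophages. Library 2 alone went the other way for Mpo and Elane barcodes, at 60.9%, against 47.4% of its 19 members.

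**Figure D3:**
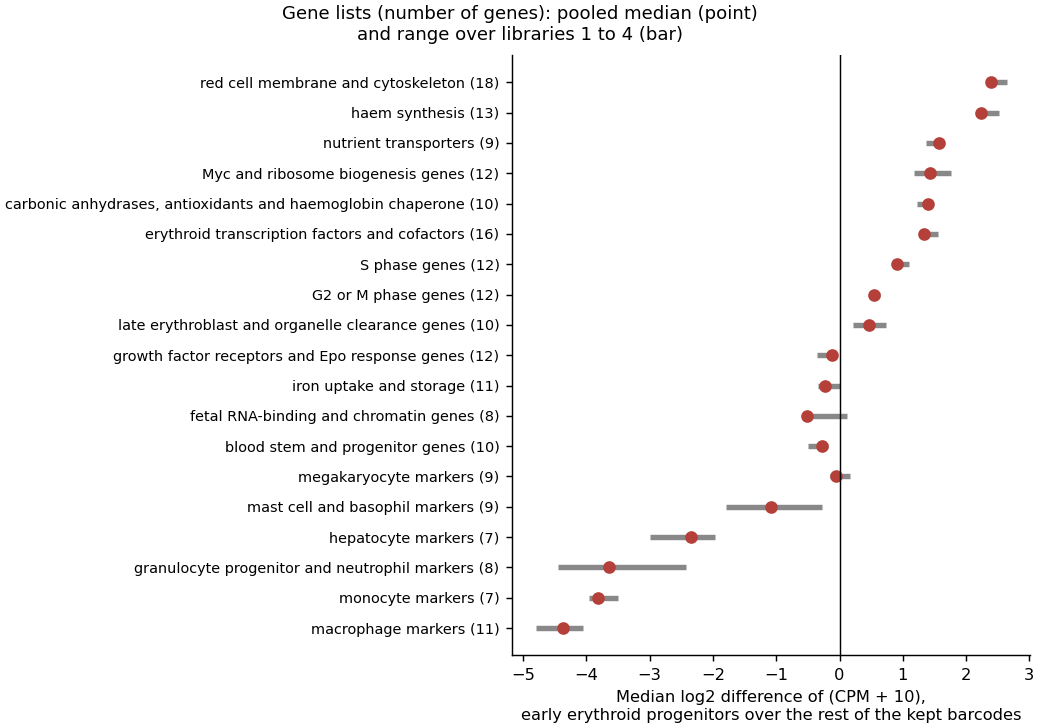
Points give the median log2 difference of (CPM + 10) between early erythroid progenitors and the rest for the gene lists drawn, which leave out the globin, lymphoid and mesenchymal and endothelial lists, bars the range over libraries 1 to 4, and the number of genes is in brackets. Of the lists drawn, the membrane and haem lists lie highest, at 2.39 and 2.24, and the macrophage list lowest, at -4.37.

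Outside the lists, the 10 genes most raised against the rest at 50 CPM or more were Mt2, Cldn13, Cited4, Hemgn, Asns, Pklr, Cd24a, Tspo2, Rfesd and Smim1. Their comparison with globin-dominated barcodes is given below. Mt2, a metallothionein that binds zinc and copper, had 1629, 1607, 2495 and 2825 CPM in members of libraries 1 to 4, against 87.5, 63.9, 156 and 142 CPM in the rest. Its neighbour Mt1 averaged 2892 CPM in members and 655 CPM in the rest. Hemgn, an erythroid nuclear protein, averaged 248 CPM in members and 5.41 CPM in the rest, and Pklr, pyruvate kinase of liver and red cells, 158 CPM in members and 2.09 CPM in the rest. Asns, asparagine synthetase, averaged 487 CPM in members and 24.1 CPM in the rest. The 10 most lowered were Selenop, Fcer1g, Ctss, Tmsb4x, Dab2, Ms4a6c, Ly86, Lgmn, Tyrobp and Fcgr3, several of them macrophage genes. Tmsb4x, which binds actin monomers, averaged 614 CPM in members and 21288 CPM in the rest.

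Members ranged widely in globin. Globins made up 3.497% of all UMIs of the members and a median of 1.29% per cell, against a median of 0.0751% in macrophages. Of the members, 286 had under 1% globin, 232 had 1 to under 10% and 82 had 10 to under 30%, with median depths of 45068, 37686.5 and 31145.5 UMIs. These are ranges along a continuous measure, not cell types. Levels in this comparison are CPM of UMIs other than globin. A call meant a 2-fold difference between the 82 globin-rich and the 286 globin-poor cells in the same direction in libraries 3 and 4, the ones with at least 10 cells in both ranges. Of 7068 genes with at least 100 UMIs, 219 were called higher in globin-rich members (3.1%) and 430 lower (6.08%), with a median log2 difference of -0.16 over all genes. All genes of the haem, membrane and cell cycle lists had 100 UMIs here, as did 15 of 16 transcription factors, 7 of 12 receptor and response genes, 11 of 12 ribosome biogenesis genes, 7 of 11 late erythroblast genes and 5 of 8 fetal RNA-binding and chromatin genes.

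Membrane genes of mature red cells were higher in globin-rich members. Slc4a1 had 2.23, 125 and 537 CPM at under 1%, 1 to under 10% and 10 to under 30% globin, a log2 difference of 5.48 between the outer ranges. Libraries 3 and 4 gave 5.52 and 5.41. At 5000 UMIs per cell it was found in 0.699%, 37.5% and 91.5% of cells of the 3 ranges, against 1.02% of macrophages. In all, 11 of 18 membrane genes were called higher, with a list median of 1.42.

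The haem list also had a median of 1.42, with 11 of 13 genes called higher. Alas2 had 4.78, 57.4 and 328 CPM over the 3 ranges and Fech, the last enzyme of the pathway, 163, 338 and 718 CPM. In 5 finer ranges, at under 0.1%, 0.1 to under 1%, 1 to under 3%, 3 to under 10% and 10 to under 30% globin, Alas2 had 2.97, 5.93, 23, 79.8 and 328 CPM, while Hemgn had 42.2, 153, 283, 423 and 662 CPM. Both climbed at every step. The iron importer gene Slc25a37 had 24.5, 125 and 398 CPM over the 3 ranges. Tfrc had 95.9, 136 and 198 CPM and Epor 139.7, 173 and 183 CPM, and neither was called.

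Kit, Myb, Cdk6 and ribosome biogenesis genes were lower in globin-rich members, whereas Car2 was higher, at 1622, 3567 and 5733 CPM over the 3 ranges (log2 difference 1.82). Kit had 32.3, 3.99 and 2.8 CPM over the 3 ranges, a log2 difference of -1.72. After thinning, Kit was found in 14.7%, 0.862% and 1.22% of cells, against 0.873% of macrophages. Members at 1% or more globin were thus near the macrophages in Kit, and 37.5% and 91.5% of them held Slc4a1. The name early progenitors is therefore not borne out for these members. Myb, a factor of proliferating progenitors, had 60.4, 8.46 and 1.4 CPM, and Cdk6, a kinase of the early cell cycle, 113, 34 and 3.73 CPM, with the largest log2 difference downward among genes outside the lists with at least 50 CPM, -3.16. Over the 5 finer ranges Myb had 85.1, 44.7, 12, 6.18 and 1.4 CPM, lower at every step. Of 12 ribosome biogenesis genes, 8 were called lower and 0 higher (median -1.18), including nucleolin, Ncl, at 2858, 2076 and 1129.6 CPM. The polyamine enzyme gene Srm had 628, 291 and 108 CPM. Of 8 fetal RNA-binding and chromatin genes, Igf2bp1, Igf2bp3 and Hmga1 were called lower, and the other 5 were not called.

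**Figure D4:**
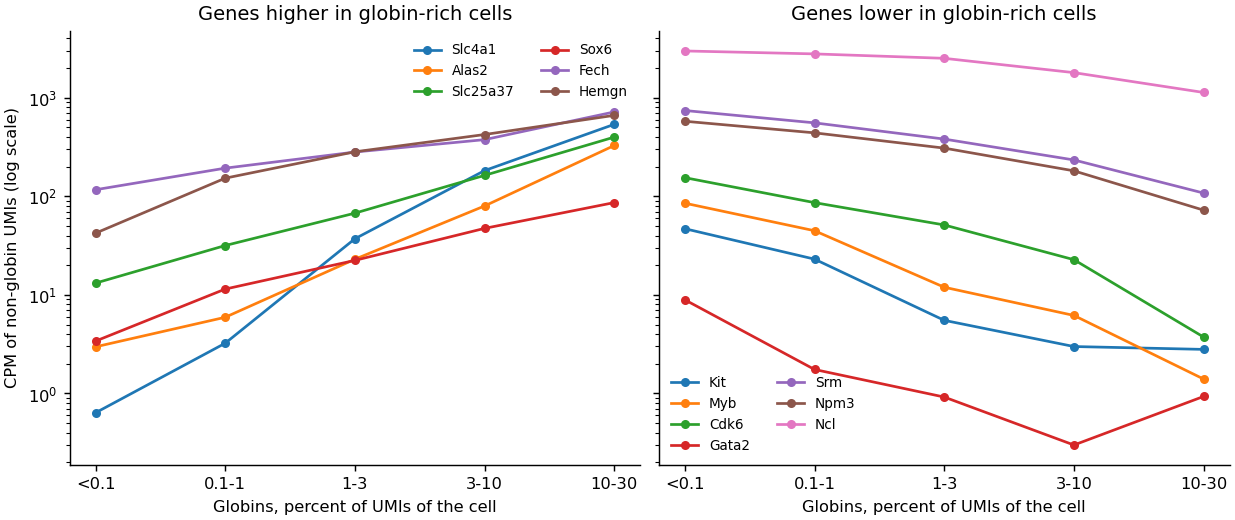
Levels in early erythroid progenitors of 6 genes that were higher (left) and 7 that were lower (right) in globin-rich cells, in CPM of non-globin UMIs on a log scale, over 5 ranges of globin share, where values under 0.3 CPM are drawn at 0.3. Alas2 climbs at every step and Myb descends at every step.

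The transcription factors moved unequally. Sox6, which with Bcl11a represses embryonic globin genes, had 8.32, 37.5 and 86.3 CPM over the 3 ranges, a log2 difference of 2.39, whereas Bcl11a had 148, 143 and 127 CPM and was not called. Nfe2, E2f2 and Mllt3 were also called higher, Myb was called lower, and the other 11 of 16 were not called. Klf1, which chose the cells, had 494, 641 and 750.3 CPM. Cell cycle genes did not fall off within these limits. Mki67 was found after thinning in 53.5%, 63.8% and 81.7% of cells, and Mki67, Top2a, Ube2c and Cenpf were called higher among 12 G2 or M phase genes, with a list median of 0.74. Rrm2 was called higher among 12 S phase genes. Of late erythroblast genes, 4 of 11 were called higher, including Trim10, a protein of terminal red cell maturation, and of 9 nutrient transporters 3 were, including the glucose transporter gene Slc2a1. Among the lists of other lineages, the macrophage list gene Ctsb was called higher and 0 genes were called lower, where 7 of 11 macrophage genes and 1 of 9 megakaryocyte genes had 100 UMIs. Outside the lists, at 50 CPM or more, the genes with the largest positive differences were Cdc25b and Acp5. Cdc25b, a phosphatase that drives mitosis, had 10.3, 44.5 and 159 CPM, and Acp5 had 63.3, 316 and 565 CPM.

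Acp5 encodes tartrate-resistant acid phosphatase, the standard stain for osteoclasts, the cell type named in the study's title. It averaged 197 CPM in all members (191 to 202), with 254, 139, 196 and 198 CPM in libraries 1 to 4. The rest had 48.3 CPM and macrophages 26.3 CPM. On UMIs other than globin, Acp5 had 204 CPM in members and 218 CPM in globin-dominated barcodes, so its level was not particular to members. Car2 is another gene that osteoclasts use. Other osteoclast genes, chosen after the Acp5 value was seen, were low in members: the protease gene Ctsk was at 0.214 CPM, the osteoclast factor gene Nfatc1 at 1.07 CPM, the RANK receptor gene Tnfrsf11a at 0.428 CPM and the proton pump gene Atp6v0d2 at 0.0428 CPM, against 14.46, 17.7, 21.5 and 3.75 CPM in the rest. In globin-poor and globin-rich members alike Ctsk had 0 UMIs.

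The globins of the members were almost entirely adult. Embryonic globins (Hba-x, Hbb-y and Hbb-bh1) made up 192 of 817225 globin UMIs, or 0.0235% (0.0203 to 0.0271), with 0.0182%, 0.0874%, 0.0128% and 0.0315% in libraries 1 to 4, and 0.0156% without library 4. No member had mostly embryonic globin, and 95 had any embryonic globin UMI. The embryonic share was 0.136% at under 1% globin, 0.0110% at 1 to under 10% and 0.0267% at 10 to under 30%. In the 111 members under 0.1% globin it was 0.748% (0.457 to 1.15). In 501 globin-dominated barcodes, with at least 1000 UMIs of which 30% or more were globin, the share was 2.46%, and the libraries had 3.05%, 3.45%, 0.535% and 1.70%. Of these barcodes 32 held mostly embryonic globin. In every library the members lay below the globin-dominated barcodes, with intervals that did not overlap. The macrophages, in which globin UMIs were rare, had 4.52% embryonic globin UMIs, with 8.99%, 2.48%, 0.549% and 2.12% in libraries 1 to 4 and 1.88% without library 1. Of the 90 Hbb-bh1 UMIs in all members, 1 member of library 4 held 32 and 1 of library 3 held 16, both with over 10% globin.

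Alpha-type globins made up a larger part of globin UMIs in globin-poor members. The alpha share was 68.5% at under 1% globin, 48.9% at 1 to under 10% and 44.5% at 10 to under 30%. In the 5 finer ranges it was 58.9%, 69.4%, 53.6%, 48% and 44.5%, so it was highest at 0.1 to under 1% globin and lower at each later step. Libraries 3 and 4 agreed within 2 percentage points in every range, with 69.5% and 69.1% at 0.1 to under 1%. The macrophages stood at 44.5%, and the 111 members under 0.1% globin were near the macrophages' globin level. Reads of Hba-a1 and Hba-a2, and of Hbb-bs and Hbb-bt, are hard to tell apart, so only their sums were read.

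**Figure D5:**
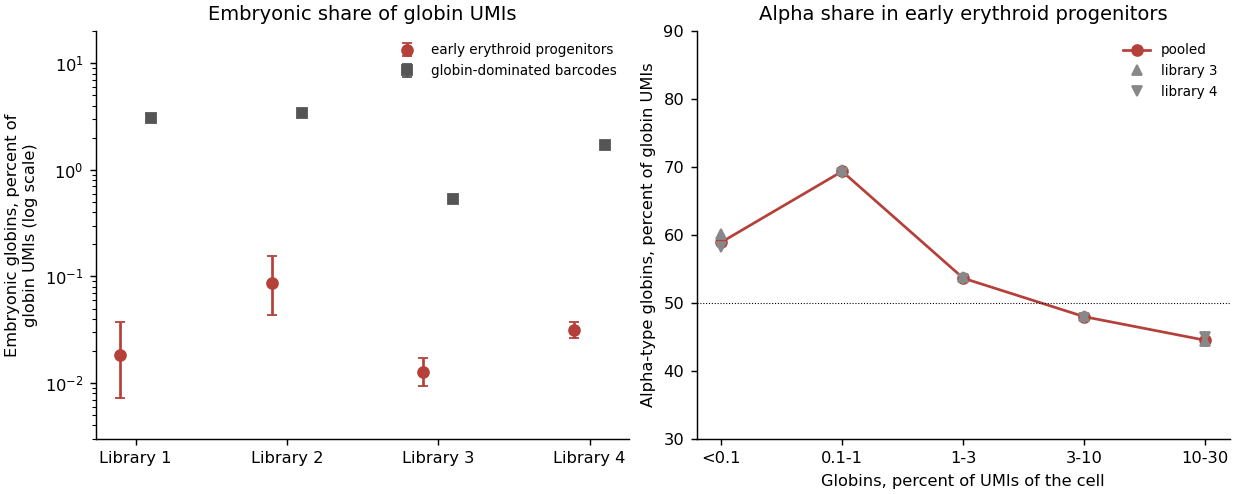
Left, embryonic globins as a percent of globin UMIs (log scale, exact binomial 95% intervals) in early erythroid progenitors and globin-dominated barcodes of each library, with the early erythroid progenitors lower in all 4 libraries. Right, alpha-type globins as a percent of globin UMIs over 5 ranges of globin share, pooled and for libraries 3 and 4, highest at 69.4%.

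Compared with globin-dominated barcodes on UMIs other than globin, members were lower for late genes and higher for growth genes. The late erythroblast list had a median log2 difference of -2.91 (6 of 11 called lower) and the membrane list -1.54 (5 of 18 lower). The haem list had -0.87 (2 of 13 lower) and the ribosome biogenesis list 1.91 (5 of 12 higher). Here 9 late and 11 ribosome biogenesis genes had 100 UMIs. Of 8103 genes, 4.49% were called lower and 0.901% higher. Of the genes most raised against the rest, Hemgn, Cd24a, Tspo2 and Cldn13 were lower in members than in globin-dominated barcodes. Mt2, Smim1, Rfesd, Cited4, Asns and Pklr were higher in members with the libraries pooled, though Mt2 was lower in members of libraries 1, 2 and 4. None of these differences reached 4-fold. Hemgn had 257 CPM in members and 765 CPM in globin-dominated barcodes, and Mt2 2699 and 2485 CPM, all pooled. By library, 1 to 4, globin-dominated barcodes had 1890, 1874, 1945 and 4093 CPM of Mt2. Alas2 had 54.8 CPM in members and 5472 CPM in globin-dominated barcodes, and Xpo7, a nuclear exporter of late erythroblasts, 6.43 CPM in members and 284 CPM in globin-dominated barcodes. Npm1, a nucleolar protein, had 4727 CPM in members and 725 CPM in globin-dominated barcodes. Of the macrophage markers, the selection limited Csf1r and Mrc1 in members. All 11 macrophage markers were lower in members than in globin-dominated barcodes, by a median of -3.98. The part of this in the other differences was not tested.

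The lineage label tdTomato differed between libraries. It had 11.03, 6.83, 131 and 134 CPM in members of libraries 1 to 4, against 103, 148, 162 and 174 CPM in the rest. In libraries 1 and 2, 15 of 19 and 16 of 19 members had no tdTomato UMI, and in libraries 3 and 4, 39 of 272 and 37 of 290. After thinning, the share of members with a UMI was 10.5%, 5.26%, 44.9% and 41.4%. Cpa3 barcodes had 22.7%, 37.5%, 84.4% and 84.8%, macrophages 29.1%, 37.3%, 45.4% and 46%, and Mpo and Elane barcodes 15.3%, 6.25%, 12.4% and 16%. The members of libraries 1 and 2 lay below the macrophages of the same library, although the interval for library 1 (1.30 to 33.1) included the macrophage share. The members of libraries 3 and 4 lay close to the macrophages. Free tdTomato RNA was not separated from the cells' own. The labels list wildtype bone marrow, which carries no reporter in them, and no library number is tied to it. In every library 29.1% to 46% of macrophages held tdTomato after thinning, so no library was free of reporter RNA.

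Within libraries 3 and 4, tdTomato was lower in globin-rich members. It had 158, 114 and 89.4 CPM of non-globin UMIs over the 3 globin ranges in library 3, and 170, 117 and 59.2 CPM in library 4. Members with at least 3 tdTomato UMIs (360) and those with none (75) were then compared in these libraries, leaving out the member with heart muscle genes, which had 0 tdTomato UMIs. At 50 CPM or more, 0 of 2771 genes were called higher in the tdTomato group (0%) and 4 were called lower (0.144%) by the 2-fold rule, among them Alas2, Slc25a37 and Slc4a1. Alas2 had 30.9 CPM in cells with tdTomato and 113 CPM in those without. The groups also differed in depth, with median UMIs of 45103 with tdTomato and 25424 without, and in globin, with medians of 0.592% with tdTomato and 4.87% without. The part of depth in this split was not tested.

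Other differences between the libraries ran through members and rest alike. Xist, the RNA that coats the inactive X chromosome of female cells, had 369, 298, 0.658 and 0.264 CPM in members of libraries 1 to 4, against 487, 469, 0.105 and 0.056 CPM in the rest. The Y-linked gene Eif2s3y had 6.30, 15.0, 55.1 and 51.2 CPM in members. Libraries 1 and 2 therefore stood apart from libraries 3 and 4 in sex-linked genes as well as in tdTomato and in the number of members, and these differences cannot be told apart. S100a8, a neutrophil gene, had 15.8, 13.7, 139 and 193 CPM in members of libraries 1 to 4, against 822, 1146, 4633 and 4509 CPM in the rest.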

How the data were processed

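The deposited file holds UMI counts per gene and barcode (10x Genomics 3′ kit, per the labels' protocols), in 1 matrix of 31054 features. Its header names Cell Ranger 3.0.1. Per the submitters' processing notes, the tool was Cell Ranger 2.1.1 and the build mm10. Counts were used as deposited, summed per class and library (561415289 UMIs in all) and expressed as CPM of that sum. CPM carry exact Poisson intervals and shares exact Clopper-Pearson ones. Differences are of log2(CPM + 10), over genes with at least 100 UMIs in the classes compared. Shares of cells with a UMI used cells thinned to 5000 UMIs. List genes could be named, as could the 10 highest and 10 lowest other genes at 50 CPM or more with 1 direction in every library. Members and lists were chosen with earlier results of these data known. Of 225 list genes, 1 (Ahsp) was not among the features. Scrublet in scanpy 1.11.5 marked 1, 1, 205 and 207 kept barcodes of libraries 1 to 4, too few in libraries 1 and 2 for the caller to have worked, and 6 members, which were kept. RefSeq promoters were found for 169 of 224 list genes. On simulated counts over the 3442 genes with at least 50 CPM in members or the rest, 100% of 4-fold differences were recovered within 0.5 log2. That check did not cover weaker genes or the globin ranges. Alternatives left out libraries and members or changed limits, scaling, filter and pseudocount. Some genes are not reported here.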

Additional observations from a re-analysis of the deposited data

Results flagged for a closer look

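Of 25 results with 4 library values, 3 had 1 library far from the others, where chance flags about 1 in 20. The S phase list had a median log2 difference between members and the rest of 1.09 in library 1, against 0.861, 0.862 and 0.832 in libraries 2 to 4. The fetal RNA-binding and chromatin list had 0.119 in library 2, against -0.489, -0.566 and -0.546 in libraries 1, 3 and 4. The hepatocyte list had -2.997 in library 3, against -2.03, -1.96 and -2.06 in libraries 1, 2 and 4. Libraries 1 and 2 held 19 members each.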

How the results depend on the processing

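Over 42 results, 151 of 166 values of the main results stayed within the spread of the libraries or within 1.5 times the main count under the alternatives, 15 moved and 0 reversed. Of 562 values of single genes and other lists, 53 moved and 0 reversed. Leaving out members with any UMI of Csf1r, Mrc1 or Lyve1 left 358 members, with a membrane median of 1.28 between globin-rich and globin-poor members. Leaving out 1 library at a time left 310 to 581 members (328 without library 3, 310 without library 4), and gave a haem median of 1.41 to 1.51 between globin-rich and globin-poor members. With globins under 10% of UMIs, the medians against the rest were 1.97 for haem and 2.11 for membrane genes. On CPM of all UMIs, the medians between globin-rich and globin-poor members were 0.053 for transcription factors, 1.17 for haem and 1.19 for membrane genes, where the larger globin part of the total lowers all other genes. With a pseudocount of 1 CPM, the medians against the rest were 1.57 for transcription factors, 2.82 for haem and 4.14 for membrane genes, and that of membrane genes between globin-rich and globin-poor members 1.63. Without thinning, 82.2% of members had a tdTomato UMI. The alternatives without libraries 1 and 2, without members that share a barcode sequence, without the barcode with heart genes and without members rich in macrophage, monocyte or granulocyte UMIs were chosen after seeing the data. No paired analysis was possible because the barcodes' library numbers match no sample label. Depth limits low genes: 0 UMIs over all members allow up to 0.128 CPM.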
